A study of Mus musculus with 8 samples.

Results

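The genes of TGF-beta, its receptors and the proteins that hold it latent were followed in cultured skin fibroblasts of Nd2-mutant and control mice. They were taken by symbol, with all their probes: the ligands Tgfb1, Tgfb2 and Tgfb3, the receptors Tgfbr1, Tgfbr2 and Tgfbr3, and the latent TGF-beta binding proteins Ltbp1, Ltbp2, Ltbp3 and Ltbp4. These 10 genes were among 18138 symbols on the array and were read by 23 of its 25697 probes. The Nd2-mutant strain was C57BL/6J-mtALR/LtJ, which carries the mitochondrial genome of ALR/LtJ with a variant of mt-Nd2, a subunit of respiratory chain complex I. The control strain was C57BL/6J-mtAKR/J, which carries the mitochondrial genome of AKR/J, and both strains have the C57BL/6J nuclear genome, reached by repeated backcrossing. Each strain gave 4 mice aged 12 months, 2 males and 2 females, and each mouse gave one fibroblast culture and one array. The controls were female mice 15 and 37 and male mice 16 and 17. The Nd2-mutants were female mice 34 and 35 and male mice 28 and 32. The study asked whether the mitochondrial variant alters the aging of skin fibroblasts, and the arrays compared the transcriptomes of the strains.

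TGF-beta is secreted as an inactive complex. The mature dimer stays bound to its own propeptide, and a latent TGF-beta binding protein ties that complex to fibrillin and other matrix fibres until integrins, proteases or thrombospondin release it. Free ligand binds the type II receptor Tgfbr2, which phosphorylates the type I receptor Tgfbr1, and Tgfbr1 then phosphorylates Smad2 and Smad3. Tgfbr3, or betaglycan, has no kinase and presents ligand, TGF-beta 2 above all, to the signalling pair. In skin fibroblasts the pathway is known for driving collagen synthesis, myofibroblast differentiation and growth arrest.

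The ligand genes differ in the sequence just before their transcription start, and Ltbp1 has separate starts for its long and short forms. They are shown for the ligands with an entry and for Ltbp1, whose transcript variants have probes of their own on the array. RefSeq entries of GRCm38.p6 were found for 8 of the 10 genes. Each line gives the 250 bases before a start on the gene's own strand, 5′ to 3′. Capitals mark GGGCGG, the GC box, TATAAA, the TATA box, CACGTG, an E box, and TGACGTCA, the cyclic AMP response element, on either strand. No printed base lay in more than one of these motifs. Tgfb1 lies at chr7:25686752-25687001 on the plus strand, Tgfb2 at chr1:186705990-186706239 on the minus strand, and the starts of Ltbp1 at chr17:75005279-75005528 and chr17:75178531-75178780 on the plus strand.
Tgfb1: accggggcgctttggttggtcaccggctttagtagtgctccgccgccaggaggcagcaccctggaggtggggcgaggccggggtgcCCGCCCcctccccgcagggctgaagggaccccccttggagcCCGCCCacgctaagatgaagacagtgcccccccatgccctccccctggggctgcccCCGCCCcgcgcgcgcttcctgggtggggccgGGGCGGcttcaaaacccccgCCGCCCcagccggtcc
Tgfb2: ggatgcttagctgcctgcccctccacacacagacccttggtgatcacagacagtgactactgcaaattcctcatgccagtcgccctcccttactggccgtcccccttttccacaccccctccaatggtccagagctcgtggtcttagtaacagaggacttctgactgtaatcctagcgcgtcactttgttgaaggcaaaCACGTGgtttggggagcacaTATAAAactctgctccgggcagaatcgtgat
Ltbp1, upstream start: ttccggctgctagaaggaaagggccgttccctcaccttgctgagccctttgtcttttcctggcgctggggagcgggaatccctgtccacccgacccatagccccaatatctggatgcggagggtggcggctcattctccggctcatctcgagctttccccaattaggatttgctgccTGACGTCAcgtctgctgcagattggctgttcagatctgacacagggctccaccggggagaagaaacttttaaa
Ltbp1, downstream start: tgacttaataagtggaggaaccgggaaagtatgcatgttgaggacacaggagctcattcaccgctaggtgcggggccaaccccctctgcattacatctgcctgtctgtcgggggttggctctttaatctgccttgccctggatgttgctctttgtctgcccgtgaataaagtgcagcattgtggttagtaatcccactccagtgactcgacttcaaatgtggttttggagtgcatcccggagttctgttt
The Tgfb1 sequence held 5 GC boxes and no TATAAA, and 75.2% of its bases were G or C, against a median of 52.4% over all 32851 promoters of the same length. Tgfb2 held no GC box but had 1 TATAAA and 1 CACGTG, with 53.6% G or C. The upstream Ltbp1 start held 1 TGACGTCA and the downstream start held no match. Over all promoters, 32.7% held GGGCGG, 12.4% TATAAA, 6.02% CACGTG and 1.55% TGACGTCA. A match is a description of letters and not a measured binding site.

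Values are fluorescence intensities in arbitrary units, background-subtracted and quantile normalised. Intensities of probes of different genes cannot be ranked against each other as amounts of RNA. A probe counted as detected on an array at a detection p below 0.01, and it was tested when detected on all 4 arrays of at least one strain. The arrays detected 10973 to 11350 probes in Nd2-mutants and 10663 to 10837 in controls. Control mouse 15 stood apart, its correlation with the others averaging 0.934 against 0.963 to 0.974 for the remaining 7, and control mouse 17 was closest to Nd2-mutant mouse 32 (r = 0.991). All 9 fibroblast markers measured were detected on every array, among them Col1a1, Pdgfra and Thy1. The 12 macrophage markers, of which 4 were detected on every array and Ptprc on none, summed to 2074 in Nd2-mutant mouse 35, 350 to 466 in the other Nd2-mutants and 273 to 663 in controls. The 8 smooth muscle and pericyte markers, of which 7 were detected on every array and Rgs5 on none, summed to 1514 to 2682 in Nd2-mutants and 2878 to 5363 in controls, with Actg2 the brightest in every mouse. Of the 7 tested, 5 had a lower mean in Nd2-mutants at an unadjusted p under 0.05 (background 3.13%), each with an adjusted p of 0.639 by limma. Among the 7, only Notch3 did not overlap between the strains. The summed markers of keratinocytes, melanocytes, endothelial cells, adipocytes and Schwann cells overlapped between the strains. The part of these cells in the values below was not tested, and in bulk RNA fewer cells of a type and less RNA per cell cannot be told apart.

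Of the 23 probes, 15 were tested and every one of the 10 genes had at least one. Of the 15, 11 were detected on all 8 arrays, and 4 passed through one strain alone: a probe of Tgfb2 and of Ltbp2 through the controls, and a probe of Ltbp3 and of Tgfbr3 through the Nd2-mutants. None passed an adjusted p of 0.05 by limma, nor did any of the 10414 probes tested on the array (0%), and the smallest adjusted p anywhere was 0.639. The methods' t-test with the same adjustment passed 1 probe on the whole array and 0 of these genes, both on these log2 values and on the linear intensities. The methods do not state the scale, but the differences that the paper listed for Tgfb2 and Tgfb3 were those of linear intensities (-29.0 and -161). The paper listed both genes as downregulated in Nd2-mutants with p-values under 0.05, and its methods name Benjamini-Hochberg correction. For linear intensities limma gave here an unadjusted p of 0.043 for Tgfb2 and 0.025 for Tgfb3. Their adjusted p was 0.756 by limma on that scale. The paper's list also held Tgm2, Htra1 and Timp3, which are described below. At an unadjusted p under 0.05 stood 5 of the 15 probes, against 7.63% of all tested probes. Of these, 3 had a lower mean in Nd2-mutants (background 3.13%), namely Tgfb2, Tgfb3 and a probe of Ltbp4. The other 2 had a higher mean (background 4.5%), namely a probe of Tgfbr2 and a probe of Tgfbr3. The strains did not overlap at 1 of the 15 probes, against 4.37% of all tested probes. Over the 15 probes the median log2 difference, Nd2-mutant minus control, was -0.17, with 8 means lower and 7 higher, and the median over all tested probes was 0.00093. Without control mouse 17, 8 of the 15 probes stood at an unadjusted p under 0.05, but so did 14% of all probes. Among the 11 probes detected on every array the count was 3, against 6.77% of all such probes. With control mouse 15 and Nd2-mutant mouse 35 both left out, a choice made after seeing the data, 4 of the 15 did, against 5.84% of all probes.

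All 3 ligand probes had a lower mean in the Nd2-mutants, by values that no adjusted test separated from the spread between mice. Tgfb1, the ligand of platelets, immune cells and fibroblasts, was read by ILMN_2711461 on chromosome 7. Its intensity was 211 in mouse 15, 162 in mouse 16, 102 in mouse 17 and 68.8 in mouse 37 of the controls. The Nd2-mutants read 67.2 in mouse 28, 114 in mouse 32, 114 in mouse 34 and 103 in mouse 35. Only control mice 15 and 16 lay above the Nd2-mutants, and the strains overlapped across the rest. Means were 99.6 ± 22.2 in Nd2-mutants and 136 ± 63.3 in controls (SD, n = 4 each). On the log2 scale the difference was -0.32 with an SE of 0.29 (adjusted p = 0.747 by limma), and without control mouse 15 it was -0.09.

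Tgfb2, which signals through Tgfbr3 more than the other ligands do, was read by ILMN_1225196 on chromosome 1 and was dim. Controls gave 58.6 in mouse 15, 71.4 in mouse 16, 21.6 in mouse 17 and 45.4 in mouse 37. Among Nd2-mutants it gave 22.7 in mouse 28, 32.2 in mouse 32, 16.2 in mouse 34 and 9.75 in mouse 35, where it was not detected. Controls other than mouse 17 lay above every Nd2-mutant, while mouse 17 lay below mice 28 and 32. The mean was 20.2 ± 9.57 in Nd2-mutants and 49.2 ± 21.3 in controls (SD, n = 4 each), a log2 difference of -0.82 with a 95% interval of -1.43 to -0.21. Limma gave an unadjusted p of 0.0128 and an adjusted p of 0.639. The two-sided, exact permutation p was 0.0857, where 0.0286 is the smallest that 4 against 4 mice can give. This probe passed the detection rule through the controls, where it was brighter, so the rule itself favoured a difference.

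Tgfb3, the ligand tied to wound repair with little scarring, was read by ILMN_2748966 on chromosome 12. Controls read 591 in mouse 15, 404 in mouse 16, 313 in mouse 17 and 479 in mouse 37. In Nd2-mutants the readings were 322 in mouse 28, 285 in mouse 32, 258 in mouse 34 and 277 in mouse 35. Of the Nd2-mutants 3 lay below the lowest control, mouse 17, and mouse 28 lay just above it. Nd2-mutants averaged 286 ± 26.9 and controls 447 ± 118 (SD, n = 4 each), so the controls spread more widely. Nd2-mutant minus control, the log2 difference was -0.59 with a 95% interval of -1.01 to -0.17, an unadjusted p of 0.0108 and an adjusted p of 0.639 by limma. Its exact permutation p was 0.0571. Leaving out control mouse 15 gave -0.44 and leaving out control mouse 17 gave -0.74. With mice 15 and 35 both left out, the log2 difference was -0.43 for Tgfb3 and -0.58 for Tgfb2. The summed smooth muscle and pericyte markers were lower in the same Nd2-mutants, although most of these markers overlapped between the strains when taken singly. Their part in the Tgfb2 and Tgfb3 values was not tested.

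**Figure D1:**
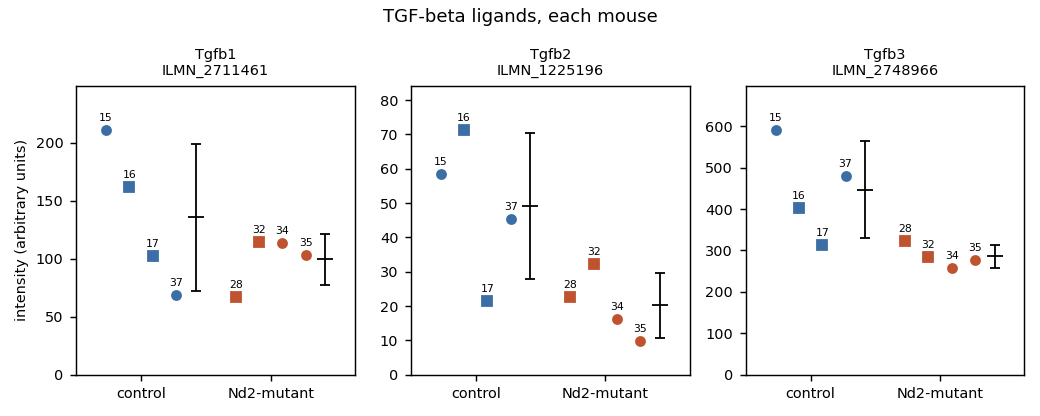
Intensity in arbitrary units of the 3 ligand probes in each mouse, controls in blue and Nd2-mutants in red, circles for females and squares for males, each point labelled with its mouse number; the black bars are mean ± SD of 4 mice. For Tgfb2 and Tgfb3, control mouse 17 (21.6 and 313) lies among or next to the Nd2-mutants, and the other controls lie above all of them.

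At the receptors, the brighter probe of the type I receptor read near the same level in both strains, and the means of the type II and type III receptors were higher in Nd2-mutants without passing the adjusted test. Tgfbr1 had 4 probes on chromosome 4, of which 2 were detected. The brighter, ILMN_2602711, read 1265, 1318, 1230 and 1150 in control mice 15, 16, 17 and 37. In Nd2-mutant mice 28, 32, 34 and 35 it read 1424, 980, 1336 and 1414. Both the highest and the lowest readings came from Nd2-mutants. This probe had a log2 difference of 0.04 with a 95% interval of -0.30 to 0.38 (adjusted p = 0.946 by limma). The dimmer probe, ILMN_2980532, averaged 37.2 ± 11.5 in Nd2-mutants and 54.7 ± 15.1 in controls (SD, n = 4 each), a log2 difference of -0.41 with a 95% interval of -0.86 to 0.04. The probes thus differed in sign, and neither interval excluded 0.

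Tgfbr2, the receptor that binds ligand first, had 2 probes on chromosome 9, both annotated to transcript variant 1. The brighter, ILMN_2760979, read 3721, 2526, 3702 and 3034 in control mice 15, 16, 17 and 37. In Nd2-mutant mice 28, 32, 34 and 35 it read 5279, 3007, 3007 and 4342. Mice 28 and 35 lay above every control and mice 32 and 34 lay within their range. Its log2 difference was 0.24 with an SE of 0.22 (adjusted p = 0.745 by limma), and without mouse 28 it was 0.08. The dimmer probe, ILMN_1242086, read 16.1, 13.9, 27.1 and 22.0 in the same controls, and 109, 30.2, 23.2 and 34.04 in the same Nd2-mutants. Mouse 28 was far above all others, and mouse 34 lay below control mouse 17. The log2 difference was 0.71 with a 95% interval of 0.0020 to 1.42, an unadjusted p of 0.0495 and an adjusted p of 0.639 by limma. Its exact permutation p was 0.0571. Without mouse 28 the difference was 0.34 and without control mouse 16 it was 0.63.

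Tgfbr3 had the only probe of these genes at which the strains did not overlap. That probe, ILMN_2606601, has no chromosome or transcript in the deposited annotation, and it read 9.53, 4.45, 19.5 and 19.2 in control mice 15, 16, 17 and 37. Nd2-mutant mice 28, 32, 34 and 35 gave 72.0, 32.7, 43.9 and 31.1. It was not detected in control mice 15 and 16 and was detected in every other mouse. The means were 44.9 ± 18.9 in Nd2-mutants and 13.2 ± 7.41 in controls (SD, n = 4 each), and the log2 difference was 1.05 with a 95% interval of 0.51 to 1.59. Limma gave an unadjusted p of 0.00137 and an adjusted p of 0.639. By exact permutation, p was 0.0286, a value that the absence of overlap fixes by itself. Since the probe passed the detection rule through the Nd2-mutants, where it was brighter, the rule itself favoured a difference. The other Tgfbr3 probe, ILMN_2789239 on chromosome 5, was much brighter and read 1114, 850, 1065 and 719 in the same controls. Nd2-mutants gave 1200, 1153, 1267 and 1079 there, and only mouse 35 lay below a control. Its log2 difference was 0.34 with a 95% interval of -0.02 to 0.70 (exact permutation p = 0.0571, adjusted p = 0.639 by limma).

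**Figure D2:**
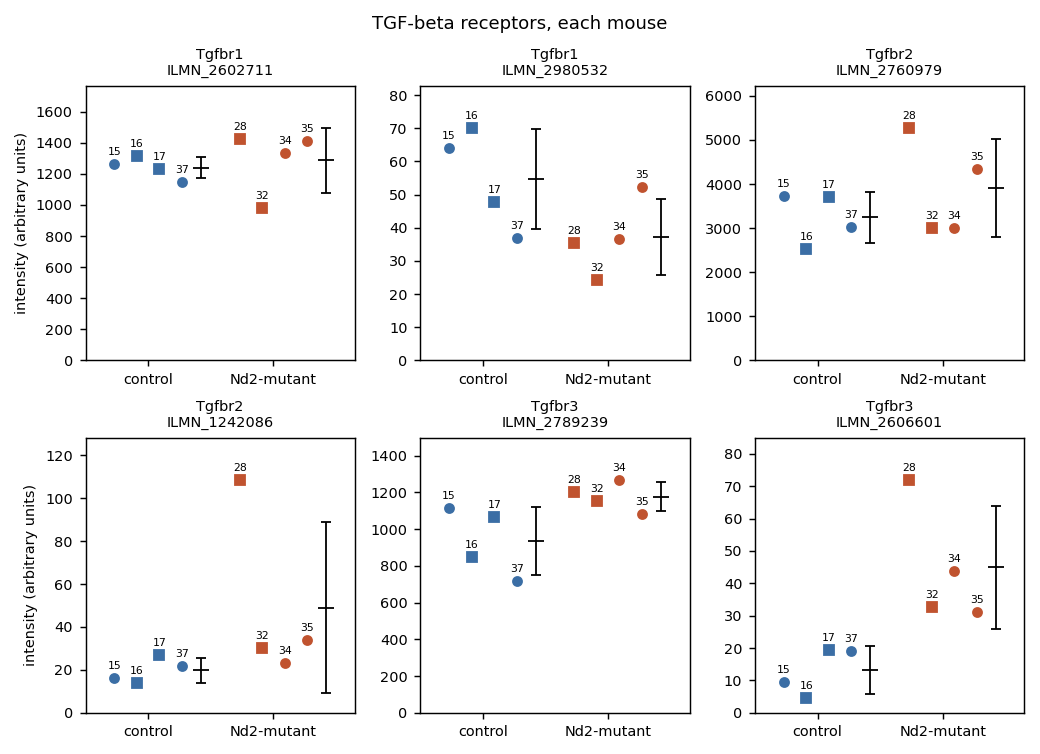
Intensity in arbitrary units of the 6 tested receptor probes in each mouse, with controls in blue, Nd2-mutants in red, circles for females, squares for males and black bars for mean ± SD of 4 mice; the panels have separate scales that start at 0. Nd2-mutant mouse 28 is the highest point for both Tgfbr2 probes (5279 and 109), and the strains separate only at Tgfbr3 ILMN_2606601.

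Among the latent TGF-beta binding proteins, the tested probes of Ltbp1, Ltbp2 and Ltbp4 had lower means in Nd2-mutants without passing the adjusted test. The brighter Ltbp3 probe was near the same level in both strains, and the dimmer had a higher mean. Ltbp1, which anchors the latent complex to fibrillin and fibronectin fibres, had 6 probes. The 3 probes annotated to transcript variant 1 were detected on 2 arrays at most, and of the 2 annotated to transcript variant 2 only ILMN_1221564 was detected, on all 8 arrays. That probe read 152, 176, 44.2 and 132 in control mice 15, 16, 17 and 37. Nd2-mutant mice 28, 32, 34 and 35 read 43.8, 58.0, 114 and 63.5. As for Tgfb2, control mouse 17 lay among the Nd2-mutants and the other controls above all of them. The log2 difference was -0.66 with a 95% interval of -1.46 to 0.13 (adjusted p = 0.647 by limma), and without mouse 17 it was -1.03. The table pairs neither start shown above with a transcript variant, so the probes were not assigned to one.

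Ltbp4, which serves elastic fibre assembly and binds mainly latent TGF-beta 1, had 3 probes on chromosome 7. ILMN_2829262 read 166, 103, 78.8 and 82.5 in control mice 15, 16, 17 and 37, and 54.9, 86.6, 53.3 and 49.99 in Nd2-mutant mice 28, 32, 34 and 35. Nd2-mutants other than mouse 32 lay below every control, and mouse 32 lay above control mice 17 and 37. The means were 61.2 ± 17.1 in Nd2-mutants and 107 ± 40.2 in controls (SD, n = 4 each). The log2 difference was -0.65 with a 95% interval of -1.16 to -0.14, an unadjusted p of 0.0170 and an adjusted p of 0.639 by limma. By exact permutation p was 0.0857, and with mice 15 and 35 left out the difference was -0.38. The probe ILMN_2590034 gave -0.20 with a 95% interval of -0.67 to 0.26, with readings of 54.0 to 99.98 in Nd2-mutants and 69.6 to 126 in controls. The remaining probe was detected on no array.

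Ltbp3, known for its part in bone and tooth development, had 2 probes on chromosome 19. The brighter, ILMN_2776619, varied least of the 15 probes, from 523 in control mouse 37 to 698 in control mouse 15, or 1.33 times. Its log2 difference was 0.02 with a 95% interval of -0.29 to 0.33 (adjusted p = 0.979 by limma). The dimmer, ILMN_2608746, read 9.69, 3.01, 15.5 and 16.2 in control mice 15, 16, 17 and 37 and 19.6, 18.9, 16.9 and 15.6 in Nd2-mutant mice 28, 32, 34 and 35. It was not detected in control mice 15 and 16 and passed the rule through the Nd2-mutants, where it was brighter. Its log2 difference was 0.35 with a 95% interval of -0.05 to 0.74 (adjusted p = 0.639 by limma). Ltbp2, which binds fibrillin but not latent TGF-beta, had 1 probe near the detection limit, with 10.2 to 18.1 in Nd2-mutants and 14.98 to 24.0 in controls. That difference was -0.17 on the log2 scale with a 95% interval of -0.50 to 0.17 (adjusted p = 0.748 by limma).

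**Figure D3:**
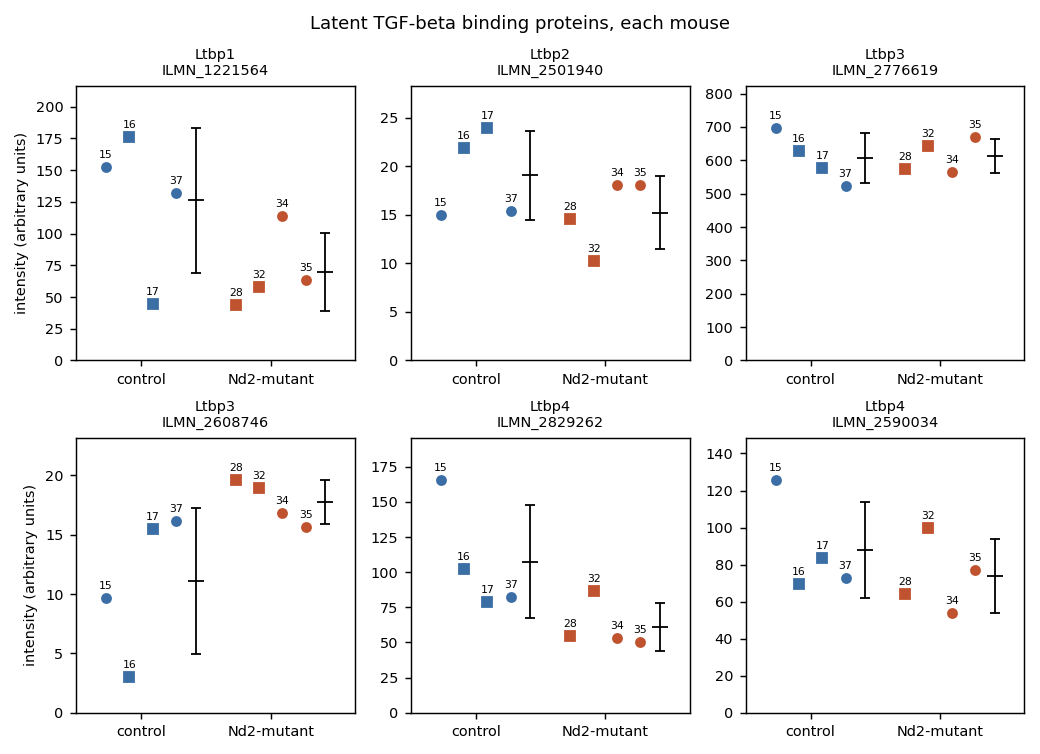
Intensity in arbitrary units of the 6 tested probes of the latent TGF-beta binding proteins in each mouse, drawn with controls in blue, Nd2-mutants in red, circles for females, squares for males and black bars for mean ± SD of 4 mice, on separate scales from 0. Control mouse 17 (44.2) lies with the Nd2-mutants for Ltbp1, and Nd2-mutant mouse 32 (86.6) lies within the controls for Ltbp4 ILMN_2829262.

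The 8 probes that were not tested were 5 of Ltbp1, 2 of Tgfbr1 and 1 of Ltbp4, and 7 of them were detected on no array. The readings of those 7 probes ran from -6.15 to 9.48, with 35 of 56 values at or below 0. Ltbp1 ILMN_2765452 was detected on 2 arrays, with 16.3 in control mouse 37 and 11.9 in Nd2-mutant mouse 32. Ltbp1, Tgfbr1 and Ltbp4 each also had a probe detected on all 8 arrays.

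The tested probes spread unevenly over the mice. Among the 11 detected on every array, the highest reading was from 1.33 times the lowest at Ltbp3 ILMN_2776619 to 7.81 times at Tgfbr2 ILMN_1242086. On the log2 scale the SD was larger among controls than among Nd2-mutants at 11 of the 15 probes. Control mouse 15, whose array stood apart, was the highest control at 7 of the 15. Nd2-mutant mouse 28 was the highest Nd2-mutant at 6.

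**Figure D4:**
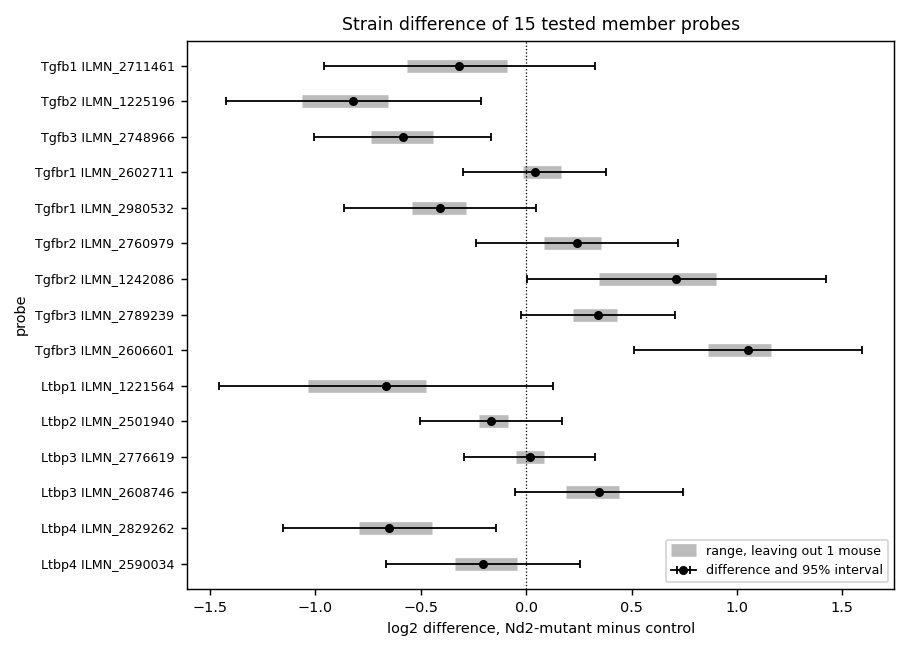
Log2 difference, Nd2-mutant minus control, of the 15 tested probes (points) with 95% intervals from limma (black bars) and the range when each of the 8 mice is left out in turn (grey bars); the dotted line is 0. The ligand and Ltbp4 probes lie to the left, the Tgfbr2 and Tgfbr3 probes to the right, and the intervals of 5 probes exclude 0 before adjustment.

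Sex was balanced in both strains, so the strain difference could be set against it. The interaction of strain and sex had an unadjusted p under 0.05 at 1 of the 15 probes, against 1.77% of all tested probes. This was Tgfb3, with a log2 difference of -0.95 in females and -0.22 in males, an interaction of 0.73 with an SE of 0.31 and an adjusted p of 0.9999 by limma. No probe of these genes passed the adjusted threshold for the interaction, and 0.0096% of all probes did. Ltbp2, by comparison, gave 0.13 in females and -0.46 in males (adjusted p = 0.9999 for the interaction). Each sex and strain held 2 mice.

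Genes around these ligands and receptors were described from 4 lists with 1 probe for each gene, the brightest tested. None of their genes passed an adjusted p of 0.05. The strains did not overlap at 2 of 18, 1 of 16, 1 of 13 and 1 of 33 genes, in the order of the lists below. Over all tested probes, 4.37% did not overlap. Of 18 genes that activate or bind latent TGF-beta, 3 stood at an unadjusted p under 0.05 (16.7%, background 7.63%), and the median log2 difference was -0.05. Tgm2, a transglutaminase that cross-links the latent complex into matrix, read 569, 654, 525 and 420 in control mice 15, 16, 17 and 37. Nd2-mutant mice 28, 32, 34 and 35 gave 181, 418, 303 and 201. No Nd2-mutant reached the lowest control, although mouse 32 (418) nearly met control mouse 37 (420). The log2 difference was -0.99 with an SE of 0.25 (adjusted p = 0.639 by limma). Tgm2 was named because the strains did not overlap, which by itself fixes the exact permutation p at 0.0286. Htra1, a secreted protease that acts on TGF-beta family proteins, also did not overlap, with 280 to 456 in Nd2-mutants and 461 to 546 in controls and a log2 difference of -0.47. Thbs1, thrombospondin 1, which releases TGF-beta from its propeptide, overlapped between the strains and is named because it completes the count of 3. It read 1343, 905, 1018 and 563 in Nd2-mutant mice 28, 32, 34 and 35 against 245, 266, 391 and 822 in control mice 15, 16, 17 and 37, a log2 difference of 1.22 with an SE of 0.37 (adjusted p = 0.639 by limma). Only control mouse 37 lay among the Nd2-mutants. The Tgm2 and Htra1 values ran the same way as the summed smooth muscle and pericyte markers, whose part was not tested.

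Of 16 accessory receptors and receptor regulators, 2 stood at an unadjusted p under 0.05 (12.5%, background 7.63%), with a median log2 difference of -0.04. That count was 0 by the methods' t-test, on the linear scale, without Nd2-mutant mouse 35 and without control mouse 16. Dab2, an endocytic adaptor of TGF-beta receptors, did not overlap. Nd2-mutant mice 28, 32, 34 and 35 read 774, 807, 881 and 1309, and control mice 15, 16, 17 and 37 read 708, 510, 706 and 693. The log2 difference was 0.50 with an SE of 0.19 (adjusted p = 0.639 by limma). The highest value came from mouse 35, which also had the highest macrophage markers, and their part in it was not tested. Without mouse 35 the difference was 0.33. The second gene was Myd116, now Ppp1r15a, a phosphatase subunit recruited to Tgfbr1, with a log2 difference of -0.48 and overlapping strains.

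None of 13 SMADs and nuclear partners stood at an unadjusted p under 0.05 by limma, and their median log2 difference was -0.02. This holds for the 1 probe used for each gene. The paper listed Smad5 among the genes downregulated in Nd2-mutants, with a larger difference than the probe used here. That probe averaged 184 in Nd2-mutants and 187 in controls, and other Smad5 probes were not included. Smad2 and Smad3, which carry the signal of Tgfbr1, gave 0.17 with an SE of 0.16 and -0.26 with an SE of 0.24. Smad1, which carries BMP signals, did not overlap, with 508 to 548 in Nd2-mutants and 446 to 490 in controls. Its log2 difference was 0.16 with an SE of 0.12 (adjusted p = 0.703 by limma). By the methods' t-test the unadjusted p of Smad1 was 0.00609 and its adjusted p 0.721.

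Of 33 response genes of fibroblasts, 1 stood at an unadjusted p under 0.05 (3.03%, background 7.63%), with 23 lower and 10 higher means and a median log2 difference of -0.15. That gene was Timp3, an inhibitor of matrix metalloproteinases, which read 2155 to 2566 in Nd2-mutants and 2682 to 3445 in controls without overlap, a log2 difference of -0.33 with an SE of 0.14 (adjusted p = 0.639 by limma). The myofibroblast actin Acta2 gave -0.15 with an SE of 0.15. Ctgf gave -0.43 with an SE of 0.21, and Col1a1 gave 0.19 with an SE of 0.16. None of these 3 stood at an unadjusted p under 0.05. The count over the list was not stable, and the share of all probes moved too. It was 6 with sex as a term, against 7.98% of all probes, and 5 without control mouse 17, against 14%. The count was 4 without Nd2-mutant mouse 32, against 6.59%, and 0 without control mouse 16, against 4.17%.

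**Figure D5:**
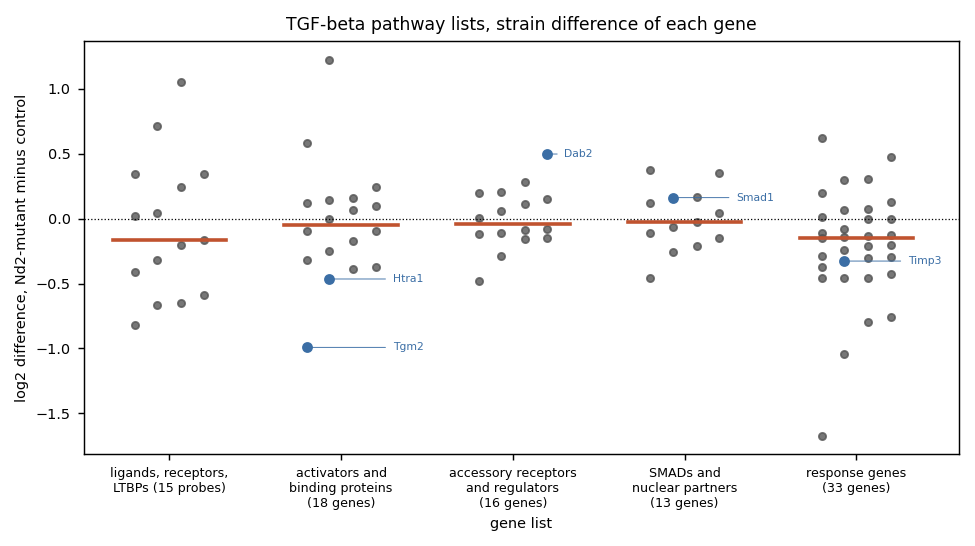
Log2 difference, Nd2-mutant minus control, of the 15 tested probes of ligands, receptors and binding proteins and of each gene of the 4 pathway lists, 1 point for each probe or gene, with red lines at the medians (-0.17, -0.05, -0.04, -0.02 and -0.15); the blue, named genes are those at which the strains did not overlap. Most points lie near 0 in every list.

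For each ligand, the probes most like it were found by correlation over the 8 arrays after each strain's mean was subtracted. For Tgfb1 these were Sharpin (r = 0.991) and the Furin probe ILMN_1252364 (r = 0.980), Furin being the protease that cleaves TGF-beta precursors. Tgfb2 was followed most closely by Tro (r = 0.971) and Rab13 (r = 0.971), and Tgfb3 by 2310007A19Rik (r = 0.987) and Rapgefl1 (r = 0.978). These are the highest of 10414 probes over 8 points that share one normalisation, and they describe the arrays without a test. With the strain means kept, r was 0.967 for Sharpin, 0.727 for Furin, 0.514 for Tro, 0.769 for Rab13, 0.969 for 2310007A19Rik and 0.979 for Rapgefl1.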

How the data were processed

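Total RNA of passage 1 skin fibroblasts from 8 mice was hybridised to Illumina MouseRef-8 BeadChips. The deposited intensity values were, according to the methods and the submitters' processing notes, extracted, background-subtracted and quantile normalised by the authors in GenomeStudio, and 26.2% of them were at or below 0. The authors deposited a detection p-value beside each intensity. The table labelled non-normalized was identical to the normalised table, so 1 table was used and no normalisation was repeated. The genome build and annotation version were not given in the sources used here.

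Negative intensities were raised to 0, and log2 was taken after 16 had been added. Of 25697 probes, 10414 detected at p below 0.01 on all 4 arrays of a strain were tested with limma 3.58.1 (R 4.3.3), two-sided, with Benjamini-Hochberg adjustment over all of them, and strain by sex was fitted likewise. Fold changes on this scale understate those of dim probes. Exact permutation tests used SciPy 1.17.1 on the same values. Means ± SD are of intensities. Limma was tested on simulated data. Promoter sequences came from RefSeq.

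The genes, lists and tests were chosen with earlier results of these data known. Beyond the genes studied, pathway genes were named where the strains did not overlap, and for each ligand the 2 probes most correlated with it; Thbs1, Myd116, Smad2, Smad3, Acta2, Ctgf, Col1a1, Id1 and Id3 were named outside this rule, with their values seen. The number of arrays limits the precision. Alternatives covered the added value, scale, detection filter, test, variance model, array weights, sex and the mice used.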

Additional observations from a re-analysis of the deposited data

Results flagged for a closer look

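In Ltbp4 ILMN_2829262, Nd2-mutant mouse 32 (86.6) lay apart from the other Nd2-mutants (49.99 to 54.9), with a gap to the nearest of 0.836 of the range on the log2 scale. In Dab2 ILMN_1243329, control mouse 16 (510) lay apart from the other controls (693 to 708), with a gap of 0.934 of the range. These were 2 of 48 groups of 4 mice examined, and chance gives about 1 in 20, or 2.4.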

How the results depend on the processing

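No probe of the 10 genes passed an adjusted p of 0.05 under any of 22 alternatives, and 10 of the 15 tested probes kept their direction under each alternative that tested them, which left out the filter on all 8 arrays for Tgfb2, Tgfbr3 ILMN_2606601 and Ltbp3 ILMN_2608746. The log2 difference of Tgfb1 turned to 0.055 with array weights. Tgfbr1 ILMN_2602711 turned to -0.11 in male mice alone and ranged from -0.013 to 0.16 when each mouse was left out. Ltbp2 turned to 0.13 in female mice alone and Ltbp4 ILMN_2590034 to 0.063 in male mice alone. Ltbp3 ILMN_2776619 ranged from -0.050 to 0.085 when each mouse was left out. The cause was not tested.

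The 0 probes of the whole array past the adjusted threshold became 3 with no detection filter, 1 with the methods' t-test on log2 values and 1 with it on linear intensities, an alternative chosen after seeing the data. The 795 at an unadjusted p under 0.05 became 1587 with no filter, where more probes were tested, and 348 in female mice alone, and ranged from 436 without control mouse 16, by way of 474 without Nd2-mutant mouse 28, to 1467 without control mouse 17. The share of all tested probes was 7.63% in the main test, 6.18% with no filter, 3.21% in female and 5.04% in male mice alone. It was 4.17% without control mouse 16, 4.51% without Nd2-mutant mouse 28, 10.8% without control mouse 37 and 14% without control mouse 17. Leaving out any other mouse gave 5.4% to 7.91%, and the remaining alternatives gave 5.84% to 7.98%. The counts of strain differences below stand beside these shares. Among the 15 probes the count of 5 became 3 in probes detected on all 8 arrays, where 11 were tested, 3 in male mice alone and 3 with the methods' t-test on linear intensities, and ranged from 4 to 8 when each mouse was left out, with 8 without control mouse 17. For the activators and binding proteins of latent TGF-beta the count of 3 became 1 in female mice alone and ranged from 2 to 5, with 5 without control mouse 37. For accessory receptors the count of 2 became 1 with 1 added before log2, no filter, array weights or female mice alone, and 0 on the linear scale, with the methods' t-test on either scale, male mice alone or mice 15 and 35 left out, and ranged from 0 to 3. For SMADs the count of 0 became 1 on the linear scale, with no filter, the methods' t-test on either scale, sex as a term, female mice alone or mice 15 and 35 left out, and 2 in male mice alone, and ranged from 0 to 2. For response genes the count of 1 became 3 in probes detected on at least 1 array, 2 in those detected on all 8, 3 with a trend in the variance model, array weights or mice 15 and 35 left out, 6 with sex as a term or female mice alone and 0 in male mice alone, and ranged from 0 to 5. The interaction count of 1 became 3 with no filter and ranged from 0 to 2 when each mouse was left out, where a lone mouse of a sex and strain was assumed to vary like the others.

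No paired analysis was possible because no mouse number occurs in both strains. Normexp correction, other normalisations and the BeadChip as a block were not run, since both tables hold the same normalised values and name no chip. Dim probes such as Tgfb2, Tgfbr3 ILMN_2606601 and Ltbp2 lie near the detection limit, where a difference is poorly resolved.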

Other observations

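Among the response genes, Id1 and Id3, inhibitors of helix-loop-helix factors that respond to BMP and TGF-beta, were picked out after their values were seen. Id1 read 126 in Nd2-mutant mouse 34 and 86.1 in mouse 35, both female, and 1096 to 1932 in the other 6 mice. Id3 read 113 and 116 in the same females and 318 to 455 elsewhere. The strain difference was -1.67 with an SE of 0.83 for Id1 and -0.76 with an SE of 0.37 for Id3 on the log2 scale (adjusted p = 0.639 by limma for both).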
